A study of Homo sapiens with 22 samples.

Results

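H3122 is a human lung adenocarcinoma cell line that carries an ALK fusion, and alectinib is an inhibitor of the ALK kinase. Xenografts of H3122 had been grown in 2 hosts, NSG mice and hHGF-NSG mice, and sampled therapy-naive, after 2 weeks or after 6 weeks of alectinib, giving 6 groups and 22 samples with bulk RNA sequencing. NSG mice lack T, B and NK cells but keep myeloid cells, so the host side of a graft holds fibroblasts, vessels, myeloid cells and neighbouring tissue such as fat. The hHGF-NSG host is named for human HGF, the ligand of the MET receptor, on the same immunodeficient background. The labels give no dose, graft site, animal age or sex, and do not describe the HGF allele. Described here are the mouse genes of the hHGF-NSG tumours at 6 weeks of alectinib (3 samples, replicates 1 to 3) against those at 2 weeks (4 samples, replicates 1 to 4), 7 of the 20 samples in the mouse gene table. Mouse transcripts in such a graft stand for the host tissue in and around the tumour, as far as reads of the 2 species were separated. How they were separated is not recorded, and some mouse values followed the human gene, as given below. Of 54532 mouse genes listed, the 14287 with at least 1 FPKM (mapped fragments scaled to gene length and library size) in at least 3 samples were tested.

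Fibroblasts and myofibroblasts make and crosslink the matrix of collagens, fibrillins, tenascin and proteoglycans, and hedgehog and TGF-beta signals from tumour cells can keep them active. Adipocytes, which surround grafts placed in or near fat, store triglyceride and are marked by adiponectin, perilipin and fatty acid binding protein. A set of transcription factors with a daily rhythm, the circadian clock, runs in almost all of these cells, so the hour of sampling moves its genes.

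The mouse share of all reads was larger at 6 weeks. It was 17.4, 9.88, 15.4 and 8.71% in the 2-week libraries and 24.3, 28.6 and 29.0% in the 6-week libraries, with no overlap (12.9 ± 4.23%, SD, n = 4, against 27.3 ± 2.60%, n = 3, difference 14.4 percentage points, exact two-sided permutation p = 0.0286, the smallest that 3 against 4 samples allow). The mouse depth was 1639063 to 3421604 reads at 2 weeks and 4356095 to 5766509 reads at 6 weeks, so the 6-week values rest on more reads. Beside them stood 14854822 to 17182482 and 10688632 to 14376750 human reads. Mitochondrial genes held 1.49 to 3.09% of the mouse reads at 2 weeks and 2.32 to 4.74% at 6 weeks. On the first principal component of the 7 libraries, which held 38.3% of the variance, 2-week replicate 3 stood at 10.3, next to 6-week replicate 1 at 10.8. The other 2-week libraries stood at -9.31, -24.95 and -53.84 and the other 6-week libraries at 32.9 and 34.0. Whether each sample is its own animal is not stated, and p-values therefore cover the spread among these samples, which may be technical.

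By limma on log2(FPKM + 1), with a Benjamini-Hochberg adjusted p under 0.05, 102 genes were called higher at 6 weeks (0.714% of those tested) and 53 were called lower (0.371%). At an unadjusted p under 0.05 there were 1116 and 828. Changes below are differences of mean log2(FPKM + 1) with their standard error (SE), and this scale understates the change of low genes. Among the genes that passed, 85 of the 102 and 33 of the 53 changed by at least 1, which is 2-fold on this scale. The 2 groups did not overlap in 94 of the 102 and in all 53, where 6.86% of all genes tested were apart in the higher and 6.57% in the lower direction. The counts moved with single libraries. Without 2-week replicate 3 there were 338 higher (2.37%) and 152 lower genes (1.06%), among them all 102 and 52 of the 53. Without 2-week replicates 1, 2 and 4 there were 47, 23 and 23 higher and 26, 16 and 8 lower genes. Without 6-week replicates 1, 2 and 3 there were 144, 10 and 14 higher and 47, 5 and 7 lower genes. Fitted on the 7 libraries alone, 4 genes were higher and 3 lower, and limma voom on the reads recovered from the FPKM values called 348 and 218, which include 96 of the 102 and 52 of the 53.

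**Figure D1:**
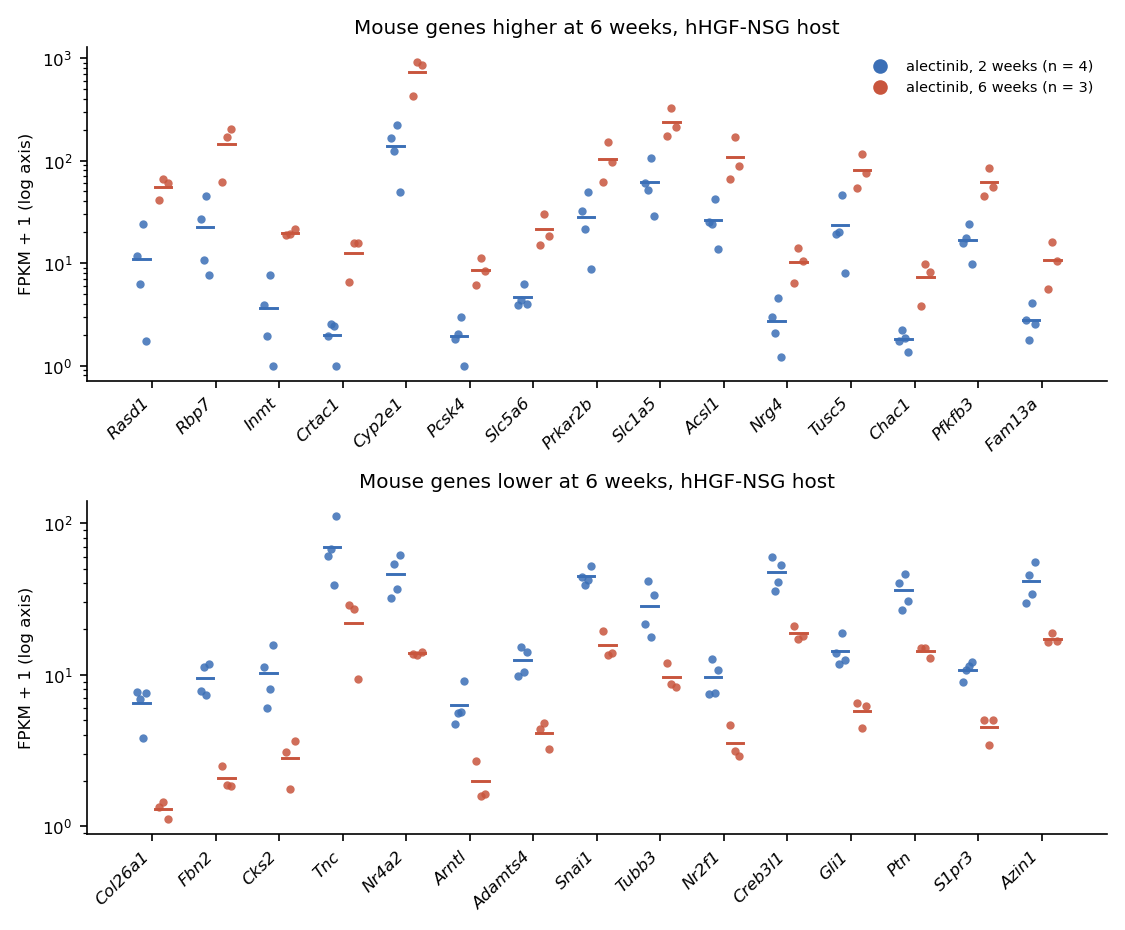
FPKM + 1 on a log axis for the 15 genes with the largest rise (top) and the 15 with the largest fall (bottom), each point 1 library and each bar the mean of the 4 libraries at 2 weeks or the 3 at 6 weeks. The groups do not overlap in any of the 30 genes, and their 2-week spread differs from gene to gene, from 0.746 to 23.2 FPKM in Rasd1 and from 38.3 to 51.5 FPKM in Snai1.

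In each of the 7 fits that left out 1 library, 15 genes passed, 13 of them protein coding, and the other 140 lost the threshold in at least 1. Protein-coding genes higher in all 7 were Hlf, Dbp, Tef, Nr1d1, Crtac1, Slc5a6, Pfkfb3 and Chst1. Those lower in all 7 were Fbn2, Col26a1, Snai1, S1pr3 and Vcan. Dbp, Hlf, Tef and Nr1d1 belong to the circadian clock, and Fbn2, Col26a1 and Vcan encode matrix proteins.

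Some values in the mouse table followed the human gene of the same name. Mouse Nkx2-1, a lung and thyroid transcription factor that the tumour line expresses, held 1079 to 2204 reads, 12.3 to 14.3% of the reads of human NKX2-1 in each of the 7 libraries. Its FPKM was 182, 369.9, 237 and 401 at 2 weeks and 161, 129 and 86.8 at 6 weeks (change -1.21, SE 0.38, adjusted p = 0.125). For Nr4a2 the mouse reads were 413, 425, 418 and 411 at 2 weeks and 249, 290 and 234 at 6 weeks, 18.4 to 21.2% of the human NR4A2 reads throughout. Srsf1, a splicing factor, followed neither its human gene nor the mouse depth. It held 1472 to 1855 mouse reads in all 7 libraries, 155 to 191% of the human SRSF1 reads at 2 weeks and 242 to 269.9% at 6 weeks. Tnc, a matrix gene, held 283 to 1521 mouse reads beside 59 to 134 human reads. Of the 11368 tested genes with a human gene of the same symbol, 3893 (34.2%) had under 30% as many mouse as human reads in each of the 7 libraries, and their median change was -0.02, against 0.02 for all genes tested. These were 16 of the 48 lower and 4 of the 88 higher genes that have such a counterpart. The 16 are Arntl, Azin1, Chtop, Cks2, Creb3l1, Ctxn1, Hat1, Hnrnpa3, Hnrnph3, Marcksl1, Nr4a2, Rfx3, Sept11, Tmem263, Top2a and Ubfd1, and the 4 are Calcoco1, Mturn, Mycl and Pim3. Whether human reads entered their mouse values was not tested. With those 3893 genes left out, an alternative added after seeing the data, 122 genes were higher and 49 lower.

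**Figure D2:**
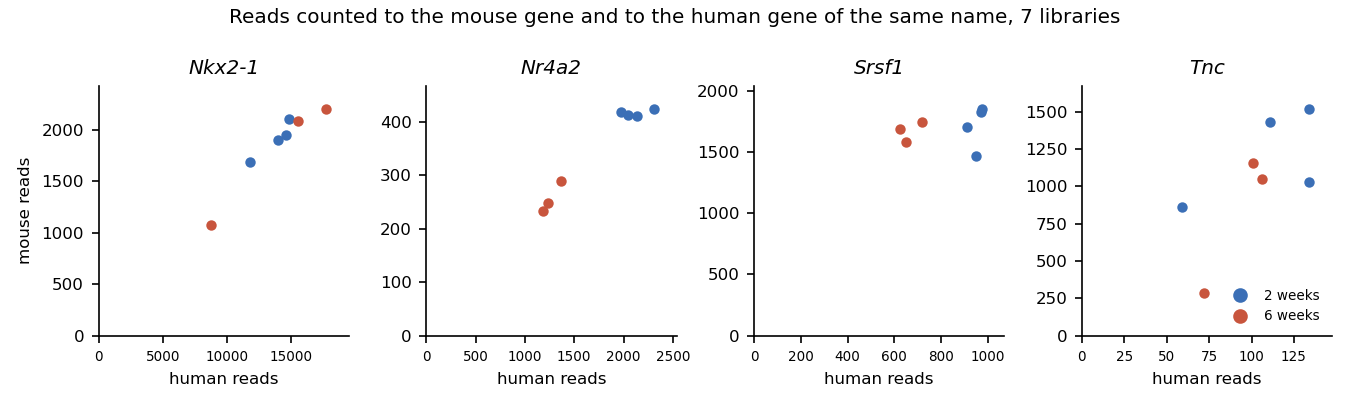
Reads counted to a mouse gene (vertical axis) against reads counted to the human gene of the same symbol (horizontal axis) in the 7 libraries, 2 weeks in blue and 6 weeks in red. The Nkx2-1 and Nr4a2 points lie near a line through 0, at 12.3 to 14.3% and 18.4 to 21.2% of the human reads, Srsf1 stays at 1472 to 1855 mouse reads, and Tnc has 283 to 1521 mouse reads for at most 134 human reads.

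Genes of fat cells had the largest positive median of the 45 gene lists, with 1 member past the threshold. The lists were chosen with earlier results of these data known, so this ranking is no independent support. All 20 white adipocyte genes had a positive change, 18 of them at an unadjusted p under 0.05, with a median of 1.5 against 0.02 over all genes tested. Only Acsl1, which activates long-chain fatty acids, passed (0.714% of all genes did so in this direction). Without 2-week replicate 3, 10 of the 20 passed (2.37%), with a median of 1.82. That fit called the most higher genes, 338, against 10 to 144 in the other fits without 1 library. For those other fits the count within this list was not computed. In bulk tissue more cells of a type and more RNA per cell cannot be told apart.

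Acsl1 stood at 24.1, 22.8, 41.6 and 12.8 FPKM at 2 weeks and 64.8, 170.0 and 87.4 FPKM at 6 weeks (change 2.04, SE 0.46, adjusted p = 0.0411). Adiponectin, encoded by Adipoq, was at 322, 233, 515 and 126 FPKM and then 489.5, 979 and 1045 FPKM (change 1.58, SE 0.53, adjusted p = 0.151). The 2 groups of Adipoq overlapped, because 2-week replicate 3 exceeded 6-week replicate 1. Dgat2, which makes triglyceride, had 135, 91.1, 225 and 40.3 FPKM and then 296, 603 and 362 FPKM, without overlap, as in 10 of the 20 genes, where 6.86% of all genes were apart in this direction (change 1.95, SE 0.50, adjusted p = 0.0655). Hormone-sensitive lipase, Lipe, changed by 1.65 (SE 0.44) with an adjusted p of 0.0743, and the adipogenic factor Pparg by 1.19 (SE 0.35) with an adjusted p of 0.103.

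Summed over the 20 genes, the level was 8503, 7380, 15210 and 3375 FPKM at 2 weeks and 14880, 27360 and 22740 FPKM at 6 weeks, with 2-week replicate 3 above 6-week replicate 1. In 6-week replicate 2 the level was the highest of the 7 libraries for 17 of the 20 genes, and in 2-week replicate 4 the lowest for all 20. Therapy-naive hHGF-NSG tumours reached at most 4424 FPKM. The 8 tested genes of thermogenic fat had a median change of 1.05 and none passed. Ucp1, the uncoupling protein of brown fat, was at 0, 0, 1.06 and 0 FPKM at 2 weeks and 0.253, 8.39 and 0.419 FPKM at 6 weeks, high in 6-week replicate 2 alone. Cox8b, a cytochrome oxidase subunit of brown fat and muscle, had 20.4, 15.3, 96.0 and 15.01 FPKM and then 80.6, 156 and 99.1 FPKM (change 2.00, SE 0.99, adjusted p = 0.397), and the values overlapped.

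**Figure D3:**
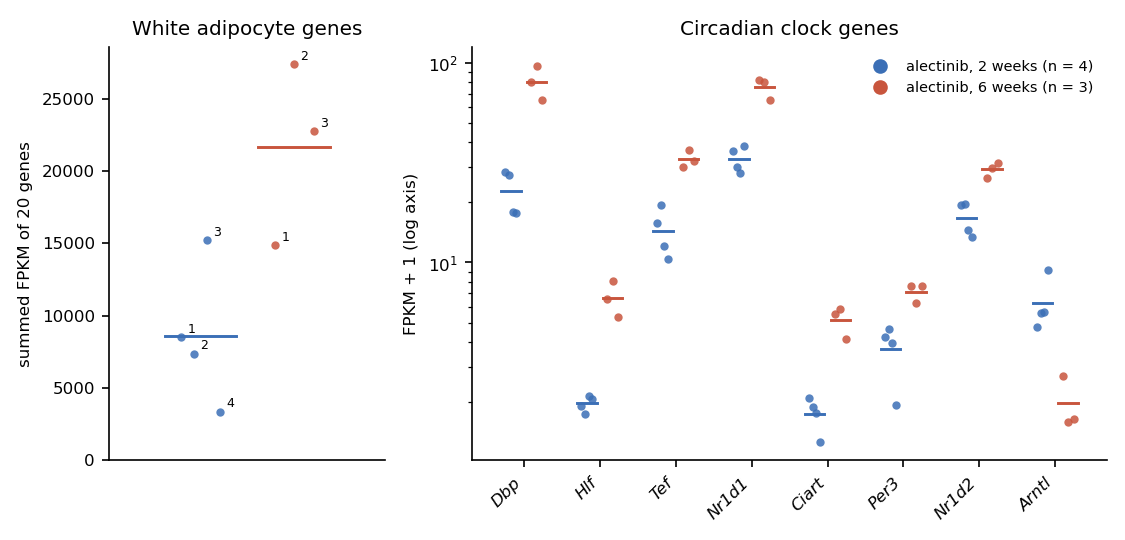
Left, summed FPKM of the 20 white adipocyte genes in each library, labelled by replicate number. Right, FPKM + 1 on a log axis of 8 circadian clock genes, with bars at the group means. The adipocyte sums overlap, since 2-week replicate 3 (15210 FPKM) lies above 6-week replicate 1 (14880 FPKM). The 8 clock genes were picked from the 11 of 16 whose groups do not overlap, and 10 of the 20 adipocyte genes do not overlap either.

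Among the higher genes named by their size, several are known from fat cells or from lipid metabolism. Rasd1, a Ras-like protein induced by glucocorticoids (mm10 chromosome 11, 59963181 to 59964944, minus strand), rose from 10.6, 5.29, 23.2 and 0.746 FPKM to 39.9, 64.8 and 59.3 FPKM (change 2.87, SE 0.56, adjusted p = 0.0202). Rbp7, a retinol binding protein of adipose tissue and its vessels (chromosome 4, 149449687 to 149454978, minus strand), had 26.0, 9.77, 44.3 and 6.69 FPKM at 2 weeks and 60.9, 170.2 and 203 FPKM at 6 weeks (change 2.86, SE 0.59, adjusted p = 0.0278). In both genes 2-week replicate 3 was the highest of its group and replicate 4 the lowest. Prkar2b, a regulatory subunit of protein kinase A that is abundant in fat, rose by 2.05 (SE 0.46, adjusted p = 0.0407). Tusc5, a membrane protein of adipocytes, rose by 2.00 (SE 0.46, adjusted p = 0.0435). Nrg4, a growth factor secreted by fat, went from 1.96, 1.07, 3.59 and 0.198 FPKM to 5.32, 13.1 and 9.41 FPKM (change 2.02, SE 0.42, adjusted p = 0.0278).

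Enzymes and transporters made up most of the other large rises. Cyp2e1, a cytochrome P450 of liver and fat, was at 163, 123, 219 and 48.7 FPKM and then 427, 909.8 and 847 FPKM (change 2.50, SE 0.50, adjusted p = 0.0243), the most abundant of the 15. Inmt, an indolamine methyltransferase, was at 2.87, 0.939, 6.70 and 0 FPKM at 2 weeks and 17.8, 18.3 and 20.3 FPKM at 6 weeks (change 2.84, SE 0.55, adjusted p = 0.0196). Slc1a5, a glutamine transporter, rose by 2.04 (SE 0.38, adjusted p = 0.0163). Slc5a6, which carries biotin and pantothenate (chromosome 5, 31036036 to 31048924, minus strand), had 2.91, 3.39, 5.29 and 3.01 FPKM and then 13.9, 29.4 and 17.5 FPKM (change 2.15, SE 0.30, adjusted p = 0.00138). Its 2-week libraries lay close together and it passed whichever library was left out. Pfkfb3, which makes the activator of phosphofructokinase in glycolysis, rose from 14.7, 16.6, 23.1 and 8.82 FPKM to 43.6, 83.3 and 54.4 FPKM (change 1.89, SE 0.28, adjusted p = 0.00215). Fam13a, a gene linked to adipocyte metabolism, rose by 1.87 and the proprotein convertase Pcsk4 by 2.18 (SE 0.32 and 0.35, adjusted p = 0.00894 and 0.00554).

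Crtac1, a secreted protein of cartilage matrix, had 0.936, 1.53, 1.45 and 0 FPKM at 2 weeks and 5.55, 14.5 and 14.5 FPKM at 6 weeks (change 2.64, SE 0.34, adjusted p = 0.0007). Chac1, which degrades glutathione and is induced by the ATF4 stress pathway, had 0.748, 1.22, 0.845 and 0.367 FPKM and then 2.79, 8.71 and 7.26 FPKM (change 1.93, SE 0.44, adjusted p = 0.0435). Of the 13 tested heat shock and unfolded protein genes 7 had a positive change, and Chac1 was the 1 called higher (0.714% of all genes). Chst1, a sulfotransferase outside the naming rule, was also higher whichever library was left out (change 1.72, SE 0.26, adjusted p = 0.00221). Of the 102 higher genes, 77 had their highest 2-week value in replicate 3, the library with the largest adipocyte sum at 2 weeks, while 27.7% of all genes tested did so. In 76 of the 102 the lowest 2-week value was in replicate 4, the 2-week library with the smallest adipocyte sum and the fewest mouse reads (1639063). The share of all genes tested with their lowest value there was not computed, so this count has no background to be read against. The part that the amount of fat in a sample has in these rises was not tested. In 78 of the 102 the naive hHGF-NSG mean lay below both treated means, and in the other 24 it lay between them. The matching shares over all genes tested were not computed.

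Further metabolic genes past the threshold, picked out after their values were seen, include the epoxide hydrolases Ephx1 and Ephx2, the P450 reductase Por, the flavin monooxygenase Fmo2, glutathione transferases Mgst1 and Gstt2, catalase (Cat), alcohol dehydrogenase Adh1 and glutamine synthetase (Glul). Ephx1 was 28.7, 29.5, 27.7 and 25.9 FPKM at 2 weeks and 56.4, 53.3 and 51.4 FPKM at 6 weeks, with a 2-week range narrower than the step (change 0.92, SE 0.19, adjusted p = 0.0264). Genes of triglyceride synthesis and lipid droplets past the threshold were Gpat3, Lpin1, Mogat1 and Fitm2, with changes of 1.82, 1.47, 1.79 and 1.34. The 17 oxidative phosphorylation genes all had a positive change, 10 at an unadjusted p under 0.05, with a median of 0.45, and none passed. The largest of them was Uqcrfs1, the Rieske subunit of complex III (change 0.96, SE 0.27, adjusted p = 0.0871). Among 15 hypoxia and glycolysis genes 1 was called higher (0.714% of all genes), the mitophagy receptor Bnip3 (change 1.52, SE 0.33, adjusted p = 0.0367).

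Clock genes changed in both directions. Of 16 circadian genes 5 rose and 1 fell, where 0.714% and 0.371% of all genes did so, 10 were apart in the higher and 1 in the lower direction (6.86% and 6.57% of all genes), and the list's median change was 0.68. The members that rose are the PAR bZIP factors Dbp, Hlf and Tef, which carry the rhythm to output genes, the repressor Nr1d1 (REV-ERB alpha) and the repressor Ciart. The member that fell is Arntl (BMAL1), the activator that Nr1d1 represses.

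Dbp (chromosome 7, 45705088 to 45710203, plus strand) stood at 27.3, 26.4, 17.0 and 16.7 FPKM at 2 weeks and 79.0, 95.7 and 64.2 FPKM at 6 weeks (change 1.84, SE 0.27, adjusted p = 0.00215). Hlf (chromosome 11, 90336536 to 90390895, minus strand) went from 0.916, 0.750, 1.14 and 1.08 FPKM to 5.58, 7.04 and 4.35 FPKM (change 1.74, SE 0.22, adjusted p = 0.000647). For Tef the values were 14.7, 18.3, 11.03 and 9.39 FPKM and then 29.1, 35.6 and 31.2 FPKM (change 1.24, SE 0.18, adjusted p = 0.00215). In each of these 3 factors every 6-week library lay above every 2-week library. Nr1d1 (chromosome 11, 98767932 to 98775333, minus strand) had 35.1, 29.0, 27.0 and 37.3 FPKM at 2 weeks and 80.8, 79.0 and 64.1 FPKM at 6 weeks (change 1.20, SE 0.16, adjusted p = 0.00103). Ciart was at 1.08, 0.886, 0.765 and 0.266 FPKM and then 4.49, 4.83 and 3.13 FPKM (change 1.57, SE 0.33, adjusted p = 0.0278). The 2-week library nearest to the 6-week level was replicate 1 in Dbp and Ciart, replicate 2 in Tef, replicate 4 in Nr1d1 and replicate 3 in Hlf.

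Arntl had 3.74, 4.59, 4.64 and 8.14 FPKM at 2 weeks and 1.71, 0.585 and 0.638 FPKM at 6 weeks (change -1.67, SE 0.27, adjusted p = 0.00605). Its mouse reads, 21 to 102, were 5.10 to 14.0% of the human ARNTL reads, and the part of human reads in its mouse value was not tested. The period genes Per2 and Per3 and the repressor Nr1d2 also separated the groups without passing (changes 0.92, 1.02 and 0.82, adjusted p = 0.275, 0.0687 and 0.133), and Per2 is among the genes with under 30% as many mouse as human reads. Clock and Cry1 changed by -0.13 and 0.01. Summed over the list the level was 183, 183, 164 and 156 FPKM at 2 weeks and 345, 357 and 294 FPKM at 6 weeks, and at most 122 FPKM in naive tumours. The hour of sampling is not given in the labels, so its part in these changes was not tested.

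Matrix genes past the threshold were mostly lower at 6 weeks. Of 11 tested interstitial collagens outside the fibrillar class 3 fell, namely Col8a1 and the collagen VI chains Col6a2 and Col6a3 (0.371% of all genes fell). Among 33 genes of elastic fibres, matricellular proteins and crosslinkers 2 fell and 1 rose, and among 26 proteases and inhibitors 2 fell and 1 rose. All 8 fibrillar collagens had a negative change (median -0.57) and none passed. The 10 tested small leucine-rich proteoglycans had a median of 0.25 with none past the threshold.

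Fbn2, the fibrillin of developing and healing elastic fibres, stood at 6.83, 10.2, 6.37 and 10.8 FPKM at 2 weeks and 1.503, 0.857 and 0.8292 FPKM at 6 weeks (change -2.19, SE 0.23, adjusted p = 0.000101). Its relative Fbn1 went from 95.7, 91.9, 63.0 and 101 FPKM to 58.0, 49.1 and 39.4 FPKM and did not pass (change -0.83, SE 0.24, adjusted p = 0.0975). Col26a1 (chromosome 5, 136741759 to 136883209, minus strand), a collagen of the EMI domain family, had 6.74, 5.88, 2.79 and 6.61 FPKM and then 0.3295, 0.452 and 0.112 FPKM (change -2.28, SE 0.32, adjusted p = 0.00171), the largest fall of the named genes. Tenascin-C, Tnc, a matricellular protein of wounds and tumours, had 59.9, 66.5, 38.2 and 111 FPKM and then 28.0, 26.2 and 8.33 FPKM (change -1.74, SE 0.40, adjusted p = 0.0435). The fall of Tnc passed in 2 of the 7 fits without 1 library, that of Fbn2 in all 7. Versican, Vcan, a large proteoglycan of provisional matrix, was named after its values were seen and passed in all 7 (change -1.20, SE 0.17, adjusted p = 0.00215).

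Col6a3 was at 143, 79.2, 90.9 and 85.3 FPKM and then 39.9, 47.4 and 50.8 FPKM (change -1.06, SE 0.22, adjusted p = 0.0277), and Col6a2 changed by -1.01 (SE 0.23, adjusted p = 0.0419). Col8a1, a short-chain collagen of vessels and fibrotic tissue, changed by -1.07 (SE 0.23, adjusted p = 0.0362). Among the fibrillar chains Col5a1 had the largest change (-1.02, SE 0.27, adjusted p = 0.0716). Col1a1, the main fibrillar collagen, was at 4975, 2439, 1816 and 3196 FPKM and then 1922, 1773 and 1514 FPKM, with overlap at 2-week replicate 3 (change -0.74, SE 0.34, adjusted p = 0.331). Col3a1 in 2-week replicate 1 was 3195 FPKM, far above the others of its group (1068, 1083 and 1158 FPKM).

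Of the proteases, the aggrecanase Adamts4 fell from 8.78, 14.3, 9.49 and 13.1 FPKM to 3.36, 3.81 and 2.23 FPKM (change -1.58, SE 0.35, adjusted p = 0.0367). The metalloprotease inhibitor Timp1 fell from 208, 154, 166 and 233 FPKM to 99.4, 79.3 and 79.8 FPKM (change -1.12, SE 0.23, adjusted p = 0.0278), with mouse reads at 30.5 to 60.3% of the human TIMP1 reads. Against this direction, stromelysin-3, Mmp11, rose from 46.4, 25.4, 16.1 and 24.4 FPKM to 57.4, 64.8 and 105 FPKM (change 1.45, SE 0.33, adjusted p = 0.0419). Thrombospondin-4, Thbs4, rose from 90.9, 20.1, 48.7 and 36.3 FPKM to 109.9, 109.8 and 177 FPKM (change 1.58, SE 0.34, adjusted p = 0.0353).

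**Figure D4:**
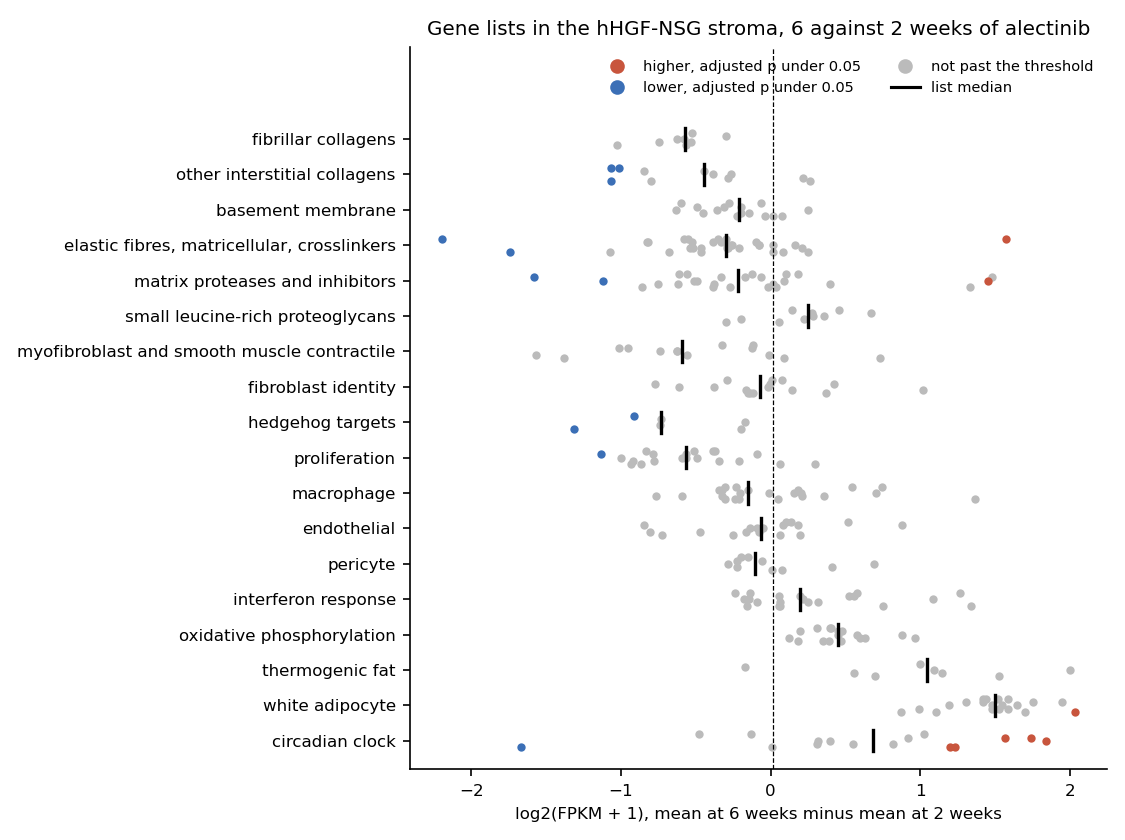
Change in log2(FPKM + 1) from 2 to 6 weeks for every tested member of 18 gene lists, 1 point per gene, with a black bar at each list's median and a dashed line at the median of all genes tested (0.02). White adipocyte genes lie right of the line (median 1.5), fibrillar collagens left of it (median -0.57), and the macrophage, endothelial and pericyte medians lie within 0.2 of it.

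Some genes of the secretory pathway were also among the lower ones, picked out after their values were seen and not tested as a list. Serpinh1 (HSP47), the collagen chaperone, had 696, 443, 493 and 644 FPKM at 2 weeks and 328, 311 and 273 FPKM at 6 weeks (change -0.88, SE 0.19, adjusted p = 0.0312). The retrieval receptor Kdelr3 changed by -1.01, the membrane protein Ckap4 by -1.03 and calreticulin, Calr, by -0.71 (adjusted p = 0.0419, 0.0128 and 0.0441). Hspa5 (BiP), the chaperone of the endoplasmic reticulum on the unfolded protein list, fell from 140.4, 136, 135 and 188 FPKM to 93.7, 87.0 and 76.6 FPKM (change -0.79, SE 0.18, adjusted p = 0.0417). Creb3l1, a transcription factor that drives collagen secretion, had 59.0, 34.8, 40.1 and 52.1 FPKM and then 19.98, 16.1 and 17.0 FPKM (change -1.32, SE 0.21, adjusted p = 0.00441), with mouse reads at 8.74 to 29.2% of the human CREB3L1 reads.

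Transcription factors, receptors and growth factors were among the largest falls. Snai1, a transcription factor of mesenchymal and activated cells (chromosome 2, 167538195 to 167542814, plus strand), had 43.4, 38.3, 41.4 and 51.5 FPKM at 2 weeks and 18.5, 12.5 and 12.8 FPKM at 6 weeks (change -1.53, SE 0.21, adjusted p = 0.00138), with at most 10 human reads of SNAI1 per library. S1pr3, a receptor for sphingosine 1-phosphate (chromosome 13, 51408639 to 51422797, plus strand), changed by -1.27 (SE 0.19, adjusted p = 0.00253). Tubb3, a beta-tubulin isotype, fell from 20.6, 40.5, 16.7 and 32.5 FPKM to 10.9, 7.63 and 7.34 FPKM (change -1.51, SE 0.34, adjusted p = 0.0404). The orphan nuclear receptor Nr2f1 (COUP-TFI) changed by -1.44 (SE 0.32, adjusted p = 0.0367). Its mouse reads were 17.0 to 28.1% of the human NR2F1 reads at 2 weeks and 37.1 to 84.0% at 6 weeks. The part of human reads in its mouse value was not tested. The heparin-binding growth factor Ptn, pleiotrophin, had 39.0, 25.7, 45.4 and 29.7 FPKM and then 14.0, 13.9 and 11.9 FPKM (change -1.30, SE 0.29, adjusted p = 0.039).

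Gli1 was a hedgehog target among the falls. All 6 tested hedgehog targets had a negative change (median -0.735). In 4 of them the groups were apart in the lower direction (6.57% of all genes). Gli1, the transcription factor that is itself a target of hedgehog signalling, had 12.9, 10.8, 17.8 and 11.5 FPKM at 2 weeks and 5.48, 3.45 and 5.22 FPKM at 6 weeks (change -1.31, SE 0.28, adjusted p = 0.033). The receptor Ptch1 changed by -0.73 (adjusted p = 0.127) and the transducer Smo by -0.20 (adjusted p = 0.748). The 6-week level of Gli1 remained above the naive mean of 0.538 FPKM, and so did Ptn with a naive mean of 4.60 FPKM. They are 2 of the 4 lower genes whose naive mean lay below both treated means. In 29 of the 53 the naive mean lay above both treated means, as for Fbn2 (17.9 FPKM), Tnc (166 FPKM) and Adamts4 (35.9 FPKM), and in the other 20 it lay between them. Shares over all genes tested were not computed for these positions.

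Contractile and cell cycle genes had negative medians with at most 1 call. Among 14 contractile genes 12 had a negative change (median -0.59) and none passed. Acta2, smooth muscle actin, was at 271, 389, 171 and 685 FPKM and then 181, 152 and 75.6 FPKM, with overlap at 2-week replicate 3 (change -1.38, SE 0.37, adjusted p = 0.0733). Without that replicate 4 of the 14 passed (1.06% of all genes). That fit called the most lower genes, 152, against 5 to 47 in the other fits without 1 library. Of 20 proliferation genes 18 had a negative change (median -0.57) and 1 was called lower (0.371% of all genes). That gene, Top2a, a topoisomerase of dividing cells, fell from 2.34, 2.11, 1.69 and 2.87 FPKM to 0.437, 0.762 and 0.254 FPKM (change -1.13, SE 0.24, adjusted p = 0.0293). Its mouse reads were 2.78 to 7.91% of human TOP2A reads. Mki67, another mark of cycling cells, did not pass (2.37, 1.145, 1.58 and 1.67 FPKM, then 0.391, 0.438 and 0.659 FPKM, change -0.83, adjusted p = 0.0522). Cks2, a cyclin-dependent kinase subunit, was among the largest falls (-1.83, SE 0.43, adjusted p = 0.0461) on 3 to 23 mouse reads per library, 1.69 to 4.95% of the human CKS2 reads. Among 10 cell cycle inhibitors and p53 targets 1 was called higher (0.714% of all genes), Gadd45a, a DNA damage response gene (9.37, 13.1, 4.71 and 7.15 FPKM, then 20.7, 19.6 and 17.1 FPKM, change 1.15, SE 0.26, adjusted p = 0.0429).

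The remaining falls named by size, Nr4a2 and Azin1, belong to the genes with few mouse reads beside human ones. Nr4a2, an immediate early nuclear receptor, had 31.1, 52.4, 35.6 and 60.8 FPKM at 2 weeks and 12.7, 12.6 and 13.2 FPKM at 6 weeks (change -1.68, SE 0.30, adjusted p = 0.0146). Azin1, an inhibitor of antizyme in polyamine metabolism, changed by -1.22 (SE 0.23, adjusted p = 0.019) on 431 to 629 mouse reads, 6.46 to 13.2% of the human reads. The 4 lower genes that do not code for protein, such as Ube2n-ps1 and Amd-ps3, are processed pseudogenes. Their values are uncertain, since such genes can share reads with their parent genes, and this was not tested.

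Markers of the main stromal cell types did not pass. None of 16 fibroblast identity, 23 macrophage, 19 endothelial and 10 pericyte genes passed, with medians of -0.07, -0.15, -0.06 and -0.11. Fibroblast markers were present, with Dpt at 532, 241, 358 and 146 FPKM and then 301, 338 and 559.6 FPKM. The macrophage gene C1qa was at 996, 1156, 776 and 1399 FPKM and then 1017, 739 and 803 FPKM, in overlap. Of the 9 lymphocyte markers 7 stayed under 1 FPKM in all 7 libraries, and the list summed to 2.55 to 8.83 FPKM at 2 weeks and 2.43 to 9.57 FPKM at 6 weeks. For skeletal muscle the sum was 3.00 to 6.77 and then 5.09 to 16.9 FPKM, and for keratinocytes 2.40 to 5.07 and then 4.59 to 12.4 FPKM. Haemoglobin and other red cell genes summed to 307 to 810.4 FPKM at 2 weeks and 687 to 1158 FPKM at 6 weeks, and mast cell genes to 15.02 to 65.0 and then 44.4 to 136 FPKM, each without a call. The part of these cells in the results above was not tested.

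Apart from the hedgehog list, no gene of the signalling and immune lists passed. In all, 10 of the 45 lists held a called gene, and 132 of the 155 called genes were on no list. The 21 interferon genes had a median of 0.20, with Ifi27l2a, the most abundant, at 866, 644, 1739 and 558 FPKM and then 1297, 2411 and 3289 FPKM (change 1.34, SE 0.40, adjusted p = 0.102). Of 18 TGF-beta genes and 17 BMP genes none passed (medians -0.11 and -0.16). Mouse Hgf, whose product binds human MET weakly, was low at both times, 0.596, 0.906, 0.818 and 1.67 FPKM and then 0.606, 0.931 and 0.191 FPKM (change -0.34, SE 0.33, adjusted p = 0.754). Mouse Met, its receptor, was at 3.43, 1.63, 2.12 and 2.35 FPKM and then 2.86, 4.97 and 4.65 FPKM, in overlap (change 0.61, SE 0.28, adjusted p = 0.347). Met and Spint2 are both among the genes with under 30% as many mouse as human reads. Spint2, an inhibitor of the proteases that activate HGF, separated the groups without passing (2.55, 1.98, 2.73 and 0.659 FPKM, then 3.46, 3.40 and 4.32 FPKM, adjusted p = 0.178). Vegfb, a ligand of VEGF receptor 1, also separated them without passing (40.0, 39.9, 63.3 and 39.3 FPKM, then 64.2, 106 and 73.4 FPKM, change 0.81, adjusted p = 0.0511).

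The NSG host was sampled at the same times, with 4 libraries at 2 weeks and 3 at 6 weeks that share none with the hHGF-NSG comparison. Its mouse share was 12.1 to 20.2% and then 16.9 to 21.9%. There 341 genes were higher (2.39%) and 215 lower (1.5%) at 6 weeks. Of the 102 genes higher in hHGF-NSG, 78 (76.5%) were also called higher in NSG, which is 22.9% of the NSG list. Of the 53 lower genes, 27 (50.9%) were also called lower in NSG, which is 12.6% of the NSG list. No gene was called in opposite directions. Both contrasts come from 1 fit with a shared estimate of spread per gene, so their calls are not fully independent. Across the 155 called genes the changes in both hosts correlated with r = 0.888, and across all 14287 tested genes with r = 0.588. The 155 were selected by their change in hHGF-NSG, and leaving out small changes raises r when directions match. Their r therefore does not measure agreement among the rises or among the falls. Genes are not independent replicates.

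The test of the difference between the hosts' changes called 1 gene of 14287 (0.007%) by limma, with 371 at an unadjusted p under 0.05. The gene is Mir7013, a microRNA gene with 0 reads in all 2-week libraries and 2, 2 and 4 reads in the hHGF-NSG libraries at 6 weeks, and limma voom on the recovered reads called 0. The 5 other genes that rose from 0 reads at 2 weeks, all noncoding, held 4 to 25 reads over the 6-week libraries. The fitted change of these 6 genes depends on the pseudocount and gives no size.

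Among protein-coding genes the smallest p of the host difference was that of S100a9, a calprotectin subunit of neutrophils and other myeloid cells. In NSG it was 19.4 ± 10.2 FPKM at 2 weeks and 0.735 ± 1.27 FPKM at 6 weeks (SD, n = 4 and 3), and in hHGF-NSG 0.767 ± 0.940 and 0.669 ± 0.290 FPKM (n = 4 and 3), with a host difference of 3.70 (SE 0.80, adjusted p = 0.898). Cdk1 changed by -1.95 in NSG and -0.59 in hHGF-NSG (difference 1.36, SE 0.31, adjusted p = 1.00). Pimreg, Kifc1, Dsn1 and Pet100 followed, with differences of 1.53, 1.07, 1.26 and 1.69 and an adjusted p of 1.00 each.

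Several leading genes were also called in NSG. Fbn2 changed by -2.07 in NSG, Col26a1 by -2.34, Tnc by -1.88 and Snai1 by -1.63 (adjusted p = 0.000177, 0.001, 0.0139 and 0.0007). Of the 16 circadian genes 6 were called higher and 1 lower in NSG (2.39% and 1.5% of all genes), with a median of 0.78. Hlf changed by 1.90 and Dbp by 0.92 in NSG (adjusted p = 0.000177 and 0.0623), a host difference of 0.92 for Dbp (SE 0.38). The white adipocyte list had a median of 1.92 in NSG with 10 of 20 genes called. Of the 14 contractile genes 8 were called lower in NSG (median -0.84), and of the 20 proliferation genes 15 (median -1.23), where 1.5% of all genes were. Chac1 changed by 0.30 in NSG (adjusted p = 0.809), with a host difference of 1.62 (SE 0.62) that did not pass the test of the difference. Of the 16 lower genes with under 30% as many mouse as human reads 5 were also called in NSG, and of the other 37 lower genes 22 were. Nr4a2 is an example of the 16, with -0.51 in NSG (adjusted p = 0.429) and a host difference of -1.17 (SE 0.43) that did not pass either.

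**Figure D5:**
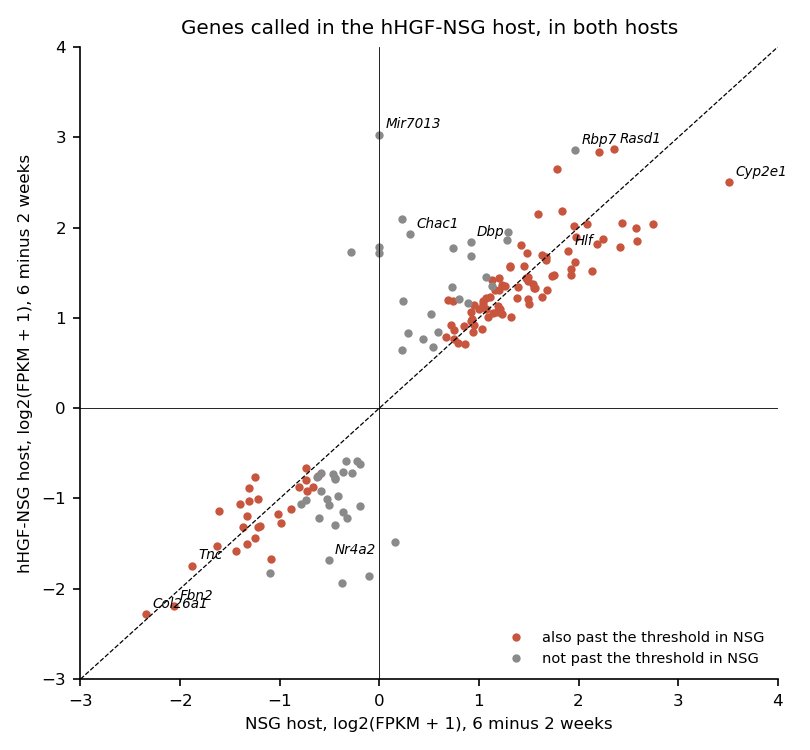
Change in log2(FPKM + 1) from 2 to 6 weeks in NSG (horizontal axis) against hHGF-NSG (vertical axis) for the 155 genes called in hHGF-NSG, with a dashed line of equal change and red points for genes also called in the same direction in NSG. The changes correlate with r = 0.888 across these genes, which were selected by their change in hHGF-NSG, and with r = 0.588 across all genes tested. The genes at 0 in NSG include Mir7013, which had no read there at either time, and Nr4a2 lies at -0.51 in NSG and -1.68 in hHGF-NSG.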

How the data were processed

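Total RNA of xenograft tissue was sequenced, and the authors deposited gene-level FPKM for human (hg38) and mouse (mm10) genes, per the file headers and labels. DESeq2 is listed in the submitters' processing notes, with no role stated. For the aligner, the annotation and the separation of human from mouse reads, nothing is recorded in the labels or headers. The NSG naive replicate 2 and NSG 6 weeks replicate 4 mouse values were not analysed here. Whole reads were recovered from the deposited FPKM and gene lengths, and 100% of values came out whole within 0.05 read. Mouse depth was 1639063 to 5766509 reads in the 7 libraries.

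Log2(FPKM + 1) was fitted with limma 3.58.1 in R 4.3.3, with 1 mean for each of the 6 groups over all 20 samples, moderated variances with a trend, and Benjamini-Hochberg adjustment over the 14287 genes with at least 1 FPKM in at least 3 samples. The threshold was an adjusted p of 0.05. The mouse read share was tested by exact permutation. Python 3.11.15, pandas 2.3.3, scipy 1.17.1 and matplotlib 3.10.9 made the tables and figures, and the fit was tested on simulated data.

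The members and the 45 gene lists were chosen with earlier results of these data known. Named by rule were protein-coding genes: the 15 largest changes per direction among called genes with groups apart and at least 5 FPKM in the higher group, up to 5 genes per list (the largest changes among called members, or the most abundant where none was called), 6 genes with the smallest p for the host difference, Hgf and Met. Other genes in the text were chosen after their values were seen. 1 gene that met the rule is not reported here. Alternatives were a pseudocount of 0.1, no filter, rescaling by median ratios, a replicate block, voom on recovered reads, thinned reads, the 7 libraries alone, leaving out each library, and, added after seeing the data, leaving out genes with few mouse beside human reads.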

Additional observations from a re-analysis of the deposited data

Results flagged for a closer look

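Among 208 measures (named genes and the mouse read share) checked in the 4 libraries at 2 weeks of hHGF-NSG, 13 had 1 library far from the other 3, by Dixon's 95% criterion. Chance alone gives about 1 in 20, and 13 of 208 is near that share. Replicate 1 was high for 5 matrix and secreted genes. Col3a1 was at 3195 FPKM there (1068 to 1158 FPKM in the others), Ogn at 123.8 FPKM (61.5 to 68.8), Sfrp2 at 187 FPKM (107 to 109), Sfrp4 at 31.3 FPKM (4.31 to 6.23) and Igfbp6 at 620.8 FPKM (307 to 335). Replicate 3 was high for Vegfb at 63.3 FPKM (39.3 to 40.0 in the others), for Cox8b at 96.0 FPKM (15.01 to 20.4) and for the keratin Krt19 at 0.373 FPKM (0 in the others). It was low for Col26a1 at 2.79 FPKM (5.88 to 6.74) and for Lamp1 at 266.8 FPKM (328 to 334). Replicate 4 was high for Hspa5 at 187.9 FPKM (135 to 140.4) and for Cldn3 at 0.477 FPKM (0 in the others), and replicate 2 was low for Cox5b at 53.6 FPKM (70.4 to 72.6). The Krt19 and Cldn3 values lie near the floor, where values rest on few reads.

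The change from 2 to 6 weeks of 1 gene differed between the hosts by limma. Mir7013 had a host difference of 3.03 on the log2(FPKM + 1) scale (adjusted p = 0.000793), from 8 reads in the 3 hHGF-NSG libraries at 6 weeks and 0 reads at 2 weeks or in NSG at 6 weeks. With 0 reads on one side this fitted value depends on the pseudocount and gives no size.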

How the results depend on the processing

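No named gene changed direction while past the threshold under any alternative run. The counts of 102 higher and 53 lower genes became 43 and 45 with a pseudocount of 0.1, 63 and 29 without a filter, 102 and 54 after median-ratio rescaling, 51 and 27 with reads thinned to the smallest library, 348 and 218 by voom, and 4 and 3 on the 7 libraries alone. Leaving out 1 library gave 10 to 338 higher and 5 to 152 lower genes. Leaving out genes with few mouse beside human reads gave 122 and 49. The 1 gene with a host difference became 0 with a pseudocount of 0.1, 0 by voom, 0 with thinned reads and 5 without a filter. It stayed 1 under rescaling and in all 14 fits without 1 library. The 556 genes called in NSG became 351 without a filter, 975 by voom and 332 with thinned reads, and 139 to 386 without 1 library. The mouse share difference was 13.0 to 16.0 percentage points without 1 library, at sizes whose smallest exact p is 0.0667 or 0.1. The cause of these shifts was not tested.

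In deviations from group means, same-numbered hHGF-NSG libraries correlated at -0.112, -0.01 and 0.085, and differently numbered ones at -0.211 to 0.182. Same-numbered NSG libraries correlated at -0.074, 0.07 and 0.021, and differently numbered ones at -0.099 to 0.147. The labels do not say what the replicate numbers stand for, and so few values cannot settle whether they pair samples. With the replicate block 35 genes were higher and 18 lower in hHGF-NSG, 327 were called in NSG, and 1 differed between hosts.

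Of the 45 named genes past the threshold, 27 kept it with a pseudocount of 0.1, 20 without a filter, 45 by voom, 22 with the replicate block, 27 with thinned reads, 3 on the 7 libraries alone and 10 to 44 without 1 library. With 3 against 4 libraries and 1639063 mouse reads in the shallowest, genes near 1 FPKM rest on few reads.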
